A study of Mus musculus with 6 samples.

Results

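The transforming growth factor beta (TGF-beta) ligands and the proteins that hold them latent were examined as 10 genes: the 3 ligands *Tgfb1*, *Tgfb2* and *Tgfb3*, the 4 latent TGF-beta binding proteins *Ltbp1*, *Ltbp2*, *Ltbp3* and *Ltbp4*, the cell surface anchors *Lrrc32* and *Nrros*, and the TGF-beta induced gene *Tgfbi*. They were chosen by name and function, with earlier results of these data known. All were found by their Ensembl identifiers among the 22032 genes of the expression matrix, and all 10 were among the 13125 genes tested. RNA was sequenced from BMPR1B+ chondrocytes of the mouse knee, with 3 embryonic and 3 adult samples. The embryonic cells came from E16.5 embryos (the labels number the stage 16.5 but give its unit as weeks) and were sorted as LIN-ALP-BMPR1B+, that is, without the lineage markers and without alkaline phosphatase. The adult cells came from 2 month old male B6 animals and were sorted as CD31-CD45-Ter119-ALP-BMPR1B+. The strain and sex of the embryos were not given, so a difference in either cannot be told apart from stage. No treatment or engineered allele was named for either stage. The samples are described as biological replicates, but the number of animals behind each was not given, so the p-values measure only the spread between these samples. The comparison of the stages asks how gene expression differs between embryonic and adult chondrocytes.

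TGF-beta is made as a precursor that furin-like proteases cut within the secretory pathway, after which the propeptide, called the latency associated peptide, stays wrapped around the growth factor and keeps it from its receptors. This small latent complex is usually joined by disulfide bonds to an LTBP, which places it in the matrix on fibrillin and fibronectin, or to a membrane anchor, GARP (encoded by *Lrrc32*) or LRRC33 (encoded by *Nrros*). Integrins and proteases later set the ligand free, and in cartilage TGF-beta is known to promote the formation of chondrocytes, to hold back their terminal differentiation and to maintain the articular surface.

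The 250 bases upstream of the transcription start are shown for *Tgfb1* and *Tgfb2* because these ligands differed between the stages in opposite directions, and the windows let the motifs before their starts be compared. The sequences are from RefSeq on GRCm38.p6, which gave 11 windows for 8 of the 10 genes. They are written 5′ to 3′ on the strand of the gene, at chr7:25686752-25687001 (+ strand) for *Tgfb1* and chr1:186705990-186706239 (- strand) for *Tgfb2*, with capitals for every match, on either strand, to 5 short motifs: the GC box GGGCGG, the TATA box TATAAA, the SMAD box CAGAC, the E-box CACGTG and the cyclic AMP response half-site TGACG.
Tgfb1: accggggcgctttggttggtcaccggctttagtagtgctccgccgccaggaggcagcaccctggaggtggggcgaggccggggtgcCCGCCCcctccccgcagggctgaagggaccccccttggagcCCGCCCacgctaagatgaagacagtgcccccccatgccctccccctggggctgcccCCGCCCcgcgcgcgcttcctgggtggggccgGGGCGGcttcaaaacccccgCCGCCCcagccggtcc
Tgfb2: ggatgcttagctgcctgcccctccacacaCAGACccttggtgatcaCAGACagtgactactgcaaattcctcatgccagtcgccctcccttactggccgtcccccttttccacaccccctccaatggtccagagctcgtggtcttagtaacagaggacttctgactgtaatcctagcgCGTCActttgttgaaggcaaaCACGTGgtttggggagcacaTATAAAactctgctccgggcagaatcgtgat
The *Tgfb1* window held 5 GC boxes and none of the other 4 motifs, and 75.2% of its bases were G or C. Among the 32851 windows of all genes, 32.7% held a GC box and 1.93% held 5 or more. The *Tgfb2* window held no GC box and was 53.6% G or C. It carried a TATA box at bases -31 to -26 before the start, which 12.4% of all windows had. An E-box lay at -51 to -46 (6.02% of all windows) and a cyclic AMP response half-site on the reverse strand at -72 to -68 (17.8%). The window also held 2 SMAD boxes, beginning at -221 and -204, where 42.2% of all windows held any SMAD box. No motif overlapped another in these windows, and the *Tgfb2* window overlaps an exon of the antisense gene *Gm29491*. Among the other members, GC boxes were found in the windows of *Ltbp2*, *Ltbp4* and *Tgfbi*, with 7 in a window of *Ltbp4*, and SMAD boxes in those of *Ltbp1*, *Ltbp2*, *Ltbp3*, *Tgfbi* and *Nrros*. A match of such short letters is a description of the window and was not tested as a binding site.

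Levels are given in TPM, the usual unit that corrects a gene's reads for transcript length and scales every sample to the same total, and differences as log2 changes of TPM + 1, adult minus embryonic, from a limma fit across all tested genes with Benjamini-Hochberg adjusted p-values. Of the 10 members, 9 passed an adjusted p of 0.05, with 4 higher and 5 lower in the adult. Over all tested genes 45.3% passed, 23.9% as higher and 21.4% as lower. Since the members were chosen with earlier results of these data known, their share is a description and tests nothing. The median log2 change was -0.36 over the members and 0.16 over all tested genes. In these sorted bulk samples fewer cells of a type and less RNA per cell cannot be told apart. The values of the stages did not overlap for 9 members, and the same held for 56.5% of all tested genes.

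*Tgfb1* rose and *Tgfb2* and *Tgfb3* fell between the embryonic and the adult stage, so that the ligand with the lowest embryonic level had the highest adult level. *Tgfb1* (chr7:25687002-25705077, + strand, GRCm38), the ligand most widely made in adult tissues and the form stored in bone and platelets, measured 61.8, 56.4 and 51.6 TPM in embryonic samples 1 to 3 and 141, 131 and 152 TPM in adult samples 1 to 3. Every adult sample lay above every embryonic sample. The means were 56.6 ± 5.13 and 141 ± 10.4 TPM (SD, n = 3 each), a 2.49-fold difference, and the log2 change was 1.31 (SE 0.14, 95% interval 0.98 to 1.63, limma adjusted p = 0.000156).

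*Tgfb2* (chr1:186622792-186705989, - strand), a ligand required in the mouse embryo for heart, skeletal and palate development, measured 183, 148 and 230 TPM in the embryonic samples and 34.8, 28.7 and 71.6 TPM in the adult samples. The stages did not overlap, and the level in adult sample 3 was above the sum of the other adult samples. The mean of 187 ± 41.3 TPM (SD, n = 3) in the embryo was 4.15 times the adult mean of 45.0 ± 23.2 TPM (SD, n = 3), with a log2 change of -2.12 (SE 0.32, interval -2.84 to -1.39, limma adjusted p = 0.000897). *Tgfb3* (chr12:86056745-86079041, - strand), known for its part in palate fusion and for driving chondrogenesis in culture, measured 86.6, 87.6 and 70.2 TPM in the embryonic samples and 14.6, 17.1 and 13.0 TPM in the adult samples. All adult values lay below all embryonic values. The embryonic mean of 81.5 ± 9.77 TPM was 5.46 times the adult mean of 14.9 ± 2.06 TPM (SD, n = 3 each), and the log2 change was -2.37 (SE 0.20, interval -2.82 to -1.93, limma adjusted p = 3.68e-05). Antisense transcripts share 124 of the 5791 exonic bases of *Tgfb2* (*Gm29491*) and up to 257 of the 3383 exonic bases of *Tgfb3* (*Gm48008*).

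**Figure D1:**
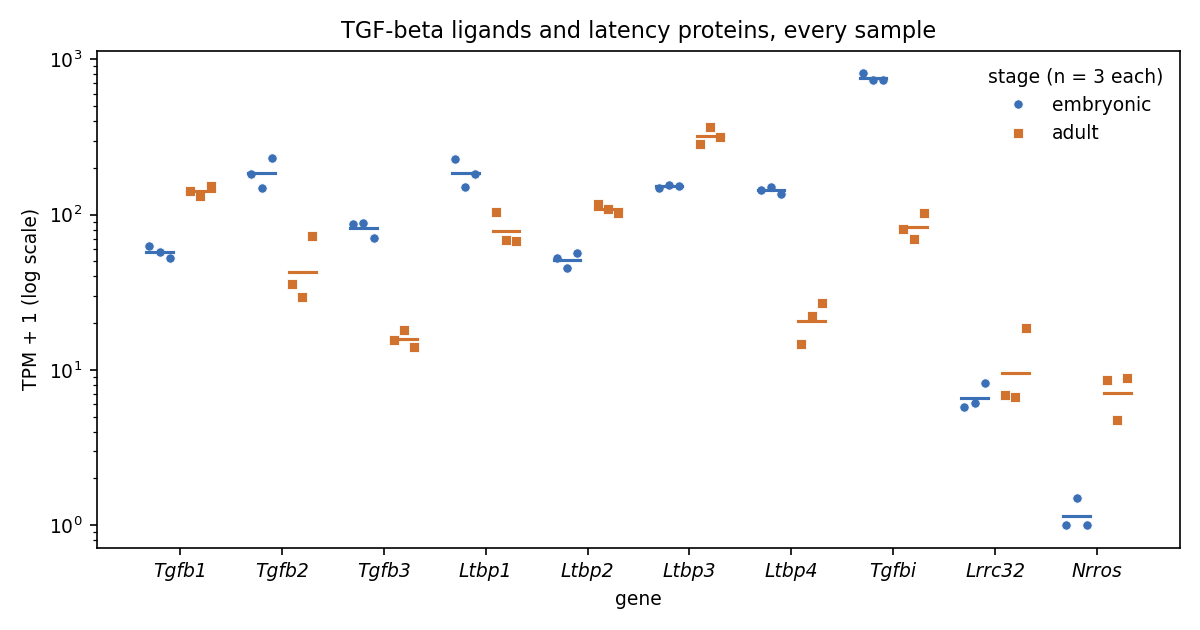
TPM + 1 of the 10 members on a log axis, with a circle for each embryonic and a square for each adult sample (n = 3 each) and a bar at the mean of log2(TPM + 1). *Tgfb1*, *Ltbp2*, *Ltbp3* and *Nrros* lay higher in the adult, *Tgfb2*, *Tgfb3*, *Ltbp1*, *Ltbp4* and *Tgfbi* lower, and the stages overlapped for *Lrrc32*.

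Because TPM is expressed per length, the ligands could be set side by side within a sample, and a share within a sample does not depend on how samples were scaled to each other. The 3 ligands summed to 331, 292 and 352 TPM in the embryo, and to 190, 177 and 236 TPM in the adult, lower in every adult sample. *Tgfb1* made up 18.7, 19.3 and 14.7% of that sum in the embryo against 74.0, 74.1 and 64.2% in the adult, or 17.6 ± 2.53% and 70.8 ± 5.69% on average (SD, n = 3 each). *Tgfb2* was the most abundant ligand of every embryonic sample and *Tgfb1* of every adult sample. The share of *Tgfb2* was 57.1 ± 7.55% in the embryo and 21.6 ± 7.59% in the adult, and that of *Tgfb3* was 25.4 ± 5.08% and 7.62 ± 2.08%. The ratio of *Tgfb1* to *Tgfb2* was 0.338, 0.382 and 0.224 in the embryo against 4.05, 4.56 and 2.12 in the adult, with no overlap. The ratio of *Tgfb2* to *Tgfb3* overlapped, at 2.11, 1.69 and 3.28 in the embryo and 2.39, 1.68 and 5.49 in the adult, so the declines of these ligands could not be told apart in size.

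The 4 LTBPs also differed in both directions, with *Ltbp2* and *Ltbp3* higher and *Ltbp1* and *Ltbp4* lower in the adult, while their summed TPM overlapped between the stages. *Ltbp3* (chr19:5740904-5758532, + strand), a carrier of latent TGF-beta whose loss in mice disturbs skeletal growth, measured 147, 154 and 153 TPM in the embryonic samples and 285, 364 and 315 TPM in the adult samples. It was the highest of the LTBPs in every adult sample. The means of 151 ± 3.75 and 321 ± 39.7 TPM (SD, n = 3 each) differed 2.12-fold, with a log2 change of 1.08 (SE 0.13, interval 0.78 to 1.37, limma adjusted p = 0.000262). *Ltbp2* (chr12:84783212-84876532, - strand), which unlike its relatives is not known to bind latent TGF-beta and associates with fibrillin microfibrils, measured 51.7, 44.4 and 55.5 TPM in the embryonic samples and 116, 108 and 102 TPM in the adult samples. The stages were apart, and the log2 change was 1.09 (SE 0.15, interval 0.75 to 1.44, limma adjusted p = 0.000579). On the opposite strand the antisense gene *D030025P21Rik*, for which the matrix has no row, shares 764 of the 8184 exonic bases of *Ltbp2*, and it is not stated that the reads were counted by strand.

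*Ltbp4* (chr7:27305136-27337692, - strand), which carries latent TGF-beta and is needed for elastic fibre assembly, measured 144, 150 and 135 TPM in the embryonic samples and 13.6, 21.2 and 25.9 TPM in the adult samples. All 3 embryonic values were far above the adult values. Its mean of 143 ± 7.44 TPM in the embryo was 7.05 times the adult mean of 20.3 ± 6.18 TPM (SD, n = 3 each), with a log2 change of -2.80 (SE 0.23, interval -3.32 to -2.28, limma adjusted p = 3.4e-05). *Ltbp1* (chr17:75005568-75392512, + strand), the founding member of the family and a carrier of all 3 ligands, measured 227, 150 and 181 TPM in the embryonic samples and 103, 67.7 and 67.1 TPM in the adult samples. The stages did not overlap, and sample 1 was the highest of each stage. The embryonic mean of 186 ± 39.0 TPM was 2.35 times the adult mean of 79.3 ± 20.6 TPM (SD, n = 3 each), with a log2 change of -1.23 (SE 0.22, interval -1.72 to -0.74, limma adjusted p = 0.002).

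The summed TPM of the LTBPs came to 570, 498 and 524 in the embryo against 518, 561 and 509 in the adult. These sums averaged 531 ± 36.7 and 529 ± 27.5 TPM (SD, n = 3 each) and overlapped, whereas their make-up did not. *Ltbp3* made up 28.6 ± 2.61% of the sum in the embryo and 60.5 ± 5.04% in the adult, and *Ltbp2* and *Ltbp3* together made up 38.1 ± 2.86% in the embryo and 81.1 ± 3.38% in the adult. The share of *Ltbp4* was 27.0 ± 2.64% in the embryo and 3.84 ± 1.23% in the adult, and that of *Ltbp1* was 34.9 ± 4.89% and 15.1 ± 4.23%. The LTBP sum exceeded the ligand sum in all 6 samples, by 1.72, 1.71 and 1.49 times in the embryo and 2.73, 3.17 and 2.15 times in the adult. These shares and ratios were described without a test.

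**Figure D2:**
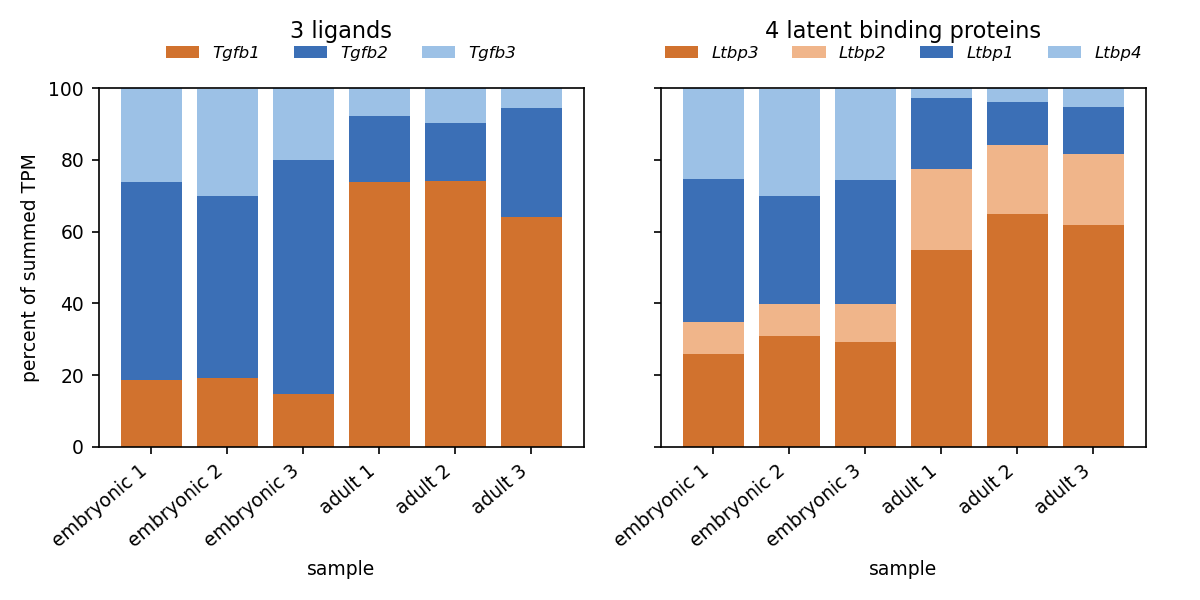
Each bar is a sample and divides the summed TPM of the 3 ligands (left) and of the 4 latent binding proteins (right) into percent. *Tgfb1* made up 14.7 to 19.3% of the embryonic and 64.2 to 74.1% of the adult ligand sum, and *Ltbp2* with *Ltbp3* made up 34.8 to 39.8% and 77.5 to 84.1% of the LTBP sum.

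*Tgfbi* differed most among the members with a fold change and was the most abundant of them in the embryo. It encodes a secreted adhesion protein that binds collagens and integrins and was named for its induction by TGF-beta. *Tgfbi* (chr13:56609523-56639562, + strand) measured 812, 738 and 734 TPM in the embryonic samples and 79.7, 68.6 and 101 TPM in the adult samples. The embryonic values were close to each other and far above every adult value. The mean of 761 ± 44.2 TPM in the embryo was 9.17 times the adult mean of 83.0 ± 16.2 TPM (SD, n = 3 each), and the log2 change was -3.20 (SE 0.15, interval -3.55 to -2.85, limma adjusted p = 1.7e-06).

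The membrane anchors were at low levels. *Lrrc32* (chr7:98489283-98502181, + strand), whose product GARP displays latent TGF-beta on regulatory T cells, platelets and some mesenchymal cells, measured 4.77, 5.11 and 7.24 TPM in the embryonic samples and 5.85, 5.70 and 17.7 TPM in the adult samples. Adult samples 1 and 2 lay within the embryonic range and adult sample 3 above it. The log2 change of 0.52 (SE 0.47, interval -0.55 to 1.59, limma adjusted p = 0.392) did not pass, and without adult replicate 3 it was 0.03. The 5 platelet and megakaryocyte markers summed to between 19.0 and 32.6 TPM in the embryonic samples and between 8.39 and 15.3 TPM in the adult samples, and the 6 endothelial markers to between 10.9 and 33.3 TPM and between 3.79 and 14.2 TPM. Among the platelet markers *Ppbp* and *Gp9* were listed at 0 throughout the embryonic samples, while *Itga2b* at 6.24 to 19.1 TPM and *Gp1bb* at 5.51 to 22.0 TPM were present there. The endothelial sum of the embryo was mostly *Tek*, and *Pecam1*, which encodes the CD31 that the sorts were set to remove, averaged 1.51 TPM in the embryo and 4.17 TPM in the adult. The part of these cells in the *Lrrc32* values was not tested.

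*Nrros* (chr16:32142785-32165594, - strand) encodes LRRC33, the anchor known from macrophages and microglia. It was listed at 0 in embryonic samples 1 and 3 and at 0.50 TPM in sample 2, and measured 7.62, 3.75 and 7.81 TPM in the adult samples. Every adult value lay above the embryonic values (limma adjusted p = 0.00241), and no fold change is given because an exact 0 can also be a failed estimate. Some leukocyte markers moved with it. The 8 leukocyte markers summed to between 5.76 and 14.7 TPM in the embryonic samples and to between 21.6 and 90.9 TPM in the adult samples, although the sorts were set to remove CD45+ cells. Of these, *Cd68* and *Itgam* passed as higher in the adult, *Lyz2* and *Laptm5* did not pass, and the other 4 were too low to be tested. *Cd68*, a lysosomal protein abundant in macrophages, measured 4.22, 5.87 and 12.6 TPM in the embryo and 33.3, 17.2 and 27.5 TPM in the adult, and *Csf1r*, the receptor that sustains macrophages, averaged 0.68 and 0.52 TPM. *Itgam*, which encodes the myeloid integrin CD11b, measured 0.40, 0.57 and 1.04 TPM in the embryo and 18.2, 1.37 and 12.1 TPM in the adult. *Lyz2*, a lysozyme of myeloid cells, measured 30.7, 0.71 and 8.14 TPM in the adult samples, *Ptprc* (CD45) at most 2.29 TPM in any sample, and the T cell gene *Cd3e* was listed at 0 in all 6. Adult sample 2 was the lowest adult sample for *Nrros*, *Cd68*, *Itgam*, *Lyz2* and *Ptprc*. By contrast *Csf1r* was highest there (0.30, 1.10 and 0.17 TPM), *Laptm5* was lowest in adult sample 3 (5.92, 1.21 and 0 TPM), and *Tyrobp* was listed at 0 in adult samples 2 and 3. Of the 8 markers, 1 reached 1 TPM in every embryonic sample and 2 in every adult sample. The part of leukocytes in the *Nrros* values was not tested.

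In the embryo the order of levels ran from *Tgfbi* at 761 TPM, the 177th most abundant gene of the matrix, through *Tgfb2* at 187, *Ltbp1* at 186, *Ltbp3* at 151 and *Ltbp4* at 143 TPM to *Tgfb3* at 81.5, *Tgfb1* at 56.6 and *Ltbp2* at 50.5 TPM, with *Lrrc32* at 5.71 and *Nrros* at 0.17 TPM last. The samples of *Tgfb2* and *Ltbp1*, of *Ltbp1* and *Ltbp3*, of *Ltbp3* and *Ltbp4*, and of *Tgfb1* and *Ltbp2* overlapped, so the ranges do not separate these neighbours. Within each sample *Ltbp3* still lay above *Ltbp4* (147, 154 and 153 against 144, 150 and 135 TPM), whereas the order of the other pairs changed between samples. In the adult *Ltbp3* led at 321 TPM, the 439th most abundant gene, followed by *Tgfb1* at 141 and *Ltbp2* at 109 TPM, each apart from the next. *Tgfbi* at 83.0, *Ltbp1* at 79.3 and *Tgfb2* at 45.0 TPM overlapped as neighbours, and so did *Ltbp4* at 20.3, *Tgfb3* at 14.9, *Lrrc32* at 9.76 and *Nrros* at 6.39 TPM. The members that led each stage were thus placed differently, since *Tgfbi* went from the 177th to the 2345th place among all genes and *Ltbp3* from the 1278th to the 439th.

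**Figure D3:**
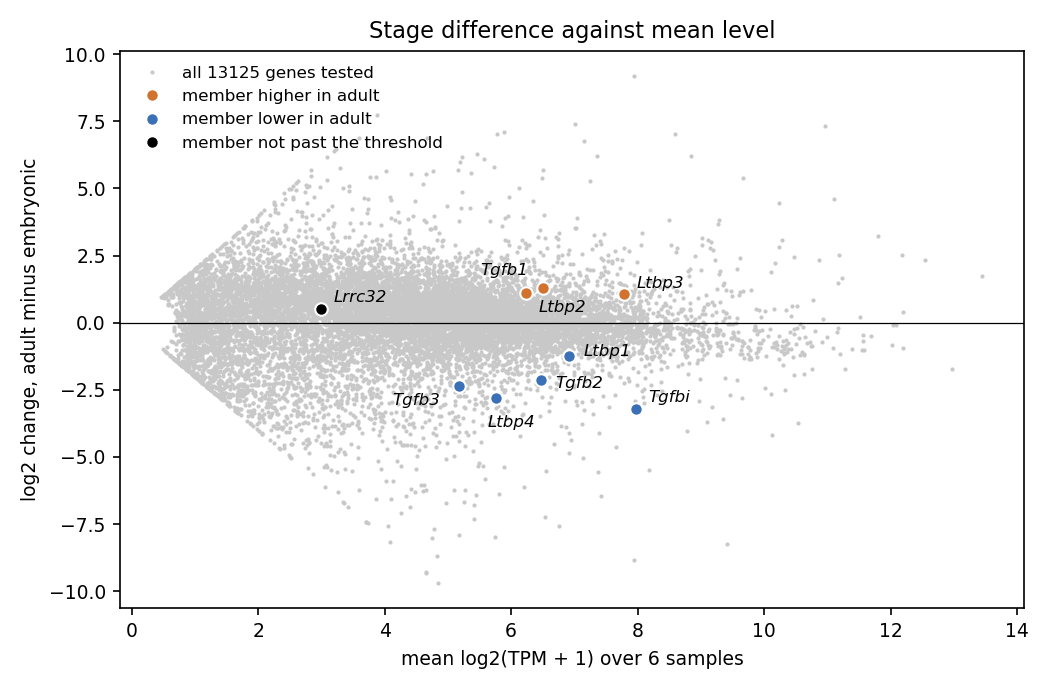
Log2 change between the stages (vertical axis, adult minus embryonic) against the mean log2(TPM + 1) of the 6 samples for the 13125 genes tested, with the members other than *Nrros* as labelled points. *Tgfb1*, *Ltbp2* and *Ltbp3* lay between 1.08 and 1.31, and *Tgfbi* at -3.20 lay below the other members.

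The genes whose pattern over the 6 samples was most like that of the ligands and of *Tgfbi* were found by Pearson's r of log2(TPM + 1), given as a description over samples that share the stage difference. For *Tgfb1* they were *Coq9* (r = 0.9988), *Mthfsd* (0.9983) and *Agtrap* (0.9975), for *Tgfb2* *Syde2* (0.9968), *Ncaph* (0.9968) and *Megf9* (0.9962), and for *Tgfb3* *Slc26a7* (0.9990), *Pcdh10* (0.9981) and *Ywhaz* (0.9978). *Tgfbi* was most like *Hmgb2* (r = 0.9992), *Dlk1* (0.9990) and *Gpc3* (0.9989), and *Dlk1*, a gene of fetal and progenitor tissues, measured 5317, 5213 and 5212 TPM in the embryo but at most 15.5 TPM in the adult. Such likeness was common, because 1049 of the 13124 other genes had an r above 0.95 with *Tgfb1*, 542 with *Tgfb2*, 1093 with *Tgfb3* and 1237 with *Tgfbi*.

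The machinery around the ligands was read from 6 lists of 56 genes, of which 54 were tested and 33 passed, 13 as higher and 20 as lower, or 61.1% beside the 45.3% of all tested genes. The median log2 change over the lists was -0.22. These lists too were chosen with earlier results of these data known, so their share is only a description. Of the 6 receptors and co-receptors, 2 rose and 3 fell, or 83.3% beside the 45.3% of all tested genes. Their median log2 change was -0.08. The type I receptor *Tgfbr1*, the kinase that passes the signal on to SMAD proteins, fell from 78.3, 79.3 and 85.4 TPM to 29.6, 41.1 and 41.0 TPM (log2 change -1.12, SE 0.18, limma adjusted p = 0.0013). The type II receptor *Tgfbr2*, which binds the ligand first, measured 188, 148 and 152 TPM in the embryo and 103, 136 and 122 TPM in the adult (log2 change -0.44, adjusted p = 0.0497), and it did not pass under 12 of 16 alternative analyses. *Tgfbr3*, or betaglycan, the co-receptor that presents TGF-beta2 to the signalling receptors, rose from 84.4, 59.4 and 74.7 TPM to 269, 393 and 234 TPM (log2 change 2.00, adjusted p = 0.000137). It therefore differed in the opposite direction to its ligand *Tgfb2*. *Cd109*, a membrane-anchored co-receptor that dampens TGF-beta signalling, rose from 71.5, 63.1 and 86.8 TPM to 464, 393 and 326 TPM (log2 change 2.40, adjusted p = 1.75e-05). *Acvrl1* (ALK1), a type I receptor best known from endothelium, fell from 12.3, 7.64 and 15.2 TPM to 2.59, 0.95 and 0 TPM (log2 change -2.68, adjusted p = 0.00419), a change that came to -4.11 (adjusted p = 0.0214) with a pseudocount of 0.1. The endothelial co-receptor *Eng* overlapped between the stages, at 35.2 ± 3.62 and 44.1 ± 13.8 TPM (SD, n = 3 each, adjusted p = 0.36).

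Of the 9 SMAD transducers and regulators, 2 rose and 2 fell, or 44.4% beside the 45.3% of all tested genes. Their median log2 change was -0.14. The receptor-regulated *Smad2* averaged 91.0 ± 1.99 TPM in the embryo and 91.3 ± 21.8 TPM in the adult (SD, n = 3 each), with a log2 change of -0.02 (interval -0.44 to 0.40, limma adjusted p = 0.927) whose sign turned under other scalings. *Smad3*, its partner in transducing TGF-beta, measured 95.1, 74.2 and 105 TPM in the embryo and 63.9, 60.7 and 71.3 TPM in the adult and missed the threshold (log2 change -0.47, interval -0.85 to -0.08, adjusted p = 0.0515), though it passed under 3 of 16 alternative analyses. The shared partner *Smad4* did not pass (log2 change -0.18, interval -0.56 to 0.19, adjusted p = 0.397). Among the regulators, *Ski*, a co-repressor of SMAD complexes, fell by 1.17 on the log2 scale (SE 0.14, adjusted p = 0.000259). *Zfyve9* (SARA), which brings SMADs to the receptor, rose by 0.99 (adjusted p = 0.00356), and *Smurf1*, a ubiquitin ligase for receptors and SMADs, by 0.64 (adjusted p = 0.00957). *Tgif2*, a co-repressor, measured 42.0, 34.9 and 41.0 TPM in the embryo and was listed at 0, 4.47 and 0 TPM in the adult (adjusted p = 0.000631). *Smurf2* (76.2 ± 13.4 and 90.9 ± 12.2 TPM) and *Trim33* (41.7 ± 9.48 and 37.6 ± 8.79 TPM) overlapped between the stages.

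Of the 11 genes known to respond to TGF-beta, 5 rose and 3 fell, or 72.7% beside the 45.3% of all tested genes. The list thus did not move one way, and its median log2 change was -0.10. *Ccn2*, the matricellular connective tissue growth factor of chondrocytes, rose from 941, 1071 and 904 TPM to 6933, 5237 and 4748 TPM (log2 change 2.52, SE 0.16, limma adjusted p = 9.89e-06). The transcription factors *Junb* (log2 change 0.75, adjusted p = 0.000989) and *Tgif1* (0.72, adjusted p = 0.00311) rose as well, and *Tsc22d1* passed at 0.49 (adjusted p = 0.0195), or 0.77 after quantile normalization, but not under 7 of 16 alternative analyses. The 3 genes that fell were *Pmepa1*, *Smad7* and *Klf10*. *Pmepa1*, which keeps SMADs from the receptor, fell from 193, 196 and 218 TPM to 25.2, 43.1 and 37.2 TPM (log2 change -2.52, SE 0.20, adjusted p = 2.96e-05). *Smad7*, the inhibitory SMAD, fell from 239, 220 and 243 TPM to 81.7, 116 and 112 TPM (log2 change -1.19, adjusted p = 0.000452). *Klf10*, an early response transcription factor, fell by 1.24 on the log2 scale (adjusted p = 0.000171). *Skil* (125 ± 10.1 and 104 ± 22.8 TPM), *Ldlrad4* (65.6 ± 6.36 and 61.5 ± 9.28 TPM) and *Tgfb1i1* (39.8 ± 7.23 and 28.2 ± 4.84 TPM) overlapped.

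Of the 15 genes that process or release the latent complex, 13 were tested, since *Itgb6* reached at most 0.54 TPM and *Plg*, the plasminogen of liver, was listed at 0 in every sample. Of these, 1 rose and 5 fell, or 46.2% beside the 45.3% of all tested genes, with a median log2 change of -0.36. Among the proteases *Mmp14*, *Plau* and *Bmp1* fell, while *Mmp2* (log2 change -1.10), *Mmp9* (0.06), *Plat* (0.44) and *Furin* (0.37) did not pass. *Mmp14*, a membrane-bound collagenase, fell from 522, 428 and 496 TPM to 73.6, 79.4 and 172 TPM (log2 change -2.25, SE 0.29, limma adjusted p = 0.000374). *Plau*, the urokinase that activates plasminogen, fell from 84.0, 56.8 and 70.5 TPM to 17.1, 9.52 and 17.9 TPM (log2 change -2.20, adjusted p = 0.000337). *Bmp1*, a procollagen proteinase that also cuts LTBP1, fell from 103, 87.5 and 91.3 TPM to 25.1, 25.9 and 33.1 TPM (log2 change -1.71, adjusted p = 0.000114). The integrin chain *Itgb1* fell by 0.52 on the log2 scale (adjusted p = 0.00628). *Thbs1*, the thrombospondin that can free TGF-beta from its propeptide, passed at -0.36 (adjusted p = 0.0303) but not under 10 of 16 alternative analyses, among them quantile normalization at -0.13. *Itgb8*, which with the integrin alpha v chain binds the propeptide, measured 2.30, 1.41 and 2.17 TPM in the embryo and 4.79, 6.04 and 7.99 TPM in the adult (log2 change 1.29, adjusted p = 0.0303) and did not pass under 7 of 15 alternative analyses. *Furin*, which cuts the precursor, overlapped, at 117, 124 and 137 TPM in the embryo and 120, 211 and 172 TPM in the adult (adjusted p = 0.161).

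The matrix partners that hold LTBPs in place spanned the widest range of log2 changes of the 6 lists. Of 11 genes, 2 rose and 6 fell, or 72.7% beside the 45.3% of all tested genes, with a median log2 change of -1.68. The 6 that fell are genes of microfibrils and elastic fibres, and 3 others of that kind did not pass. *Fbn1*, the fibrillin to which LTBPs bind, fell from 167, 110 and 168 TPM to 23.3, 16.2 and 17.9 TPM (log2 change -2.88, SE 0.22, limma adjusted p = 2.48e-05). *Fbn2*, the fibrillin of developing tissues, measured 210, 148 and 178 TPM in the embryo and at most 0.02 TPM in the adult (adjusted p = 4.95e-07). *Mfap2*, a microfibril-associated glycoprotein, measured 506, 605 and 629 TPM in the embryo and was listed at 0, 0 and 1.66 TPM in the adult (adjusted p = 1.06e-06). Elastin itself, *Eln*, fell from 535, 494 and 666 TPM to 0.64, 0.43 and 4.31 TPM (log2 change -7.92, adjusted p = 4.44e-06). *Mfap5*, the relative of *Mfap2*, fell from 155, 178 and 206 TPM to 7.66, 9.81 and 83.7 TPM (log2 change -3.17, SE 0.73, adjusted p = 0.0074), and as for *Tgfb2*, adult sample 3 was the highest adult sample. *Emilin1*, an elastic fibre glycoprotein, passed at -0.71 (adjusted p = 0.0222) but not under 6 of 16 alternative analyses. The 2 genes that rose were *Fn1* and *Tgm2*. *Fn1*, the fibronectin of early matrix and another docking site of LTBPs, rose from 2068, 1697 and 2071 TPM to 10747, 11394 and 10867 TPM (log2 change 2.50, SE 0.14, adjusted p = 3.37e-06). *Tgm2*, a transglutaminase that cross-links LTBP1 to the matrix, rose from 17.3, 11.5 and 18.9 TPM to 155, 234 and 219 TPM (log2 change 3.60, adjusted p = 1.01e-05). *Fbln5* (20.4 ± 3.22 and 17.0 ± 1.89 TPM), *Efemp2* (93.9 ± 9.39 and 85.6 ± 28.4 TPM) and *Adamtsl2* (19.8 ± 11.8 and 8.36 ± 7.64 TPM), of the same fibres, overlapped between the stages.

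Of the 4 small proteoglycans that bind TGF-beta, 1 rose and 1 fell, with a median log2 change of 0.32. *Dcn*, or decorin, rose from 217, 241 and 326 TPM to 6348, 5026 and 5549 TPM (log2 change 4.44, SE 0.17, limma adjusted p = 5.8e-07), whereas *Aspn*, or asporin, fell from 314, 211 and 310 TPM to 3.49, 3.62 and 17.7 TPM (log2 change -5.24, SE 0.50, adjusted p = 7.63e-05). These relatives therefore differed between the stages in opposite directions. Biglycan (*Bgn*) overlapped, at 1861 ± 30.3 and 2097 ± 479 TPM (adjusted p = 0.525), and *Fmod* at 961 ± 77.4 and 1388 ± 414 TPM did not pass (SD, n = 3 each, adjusted p = 0.0678). The stages did not overlap for *Fmod*, and it passed under 3 of 16 alternative analyses.

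**Figure D4:**
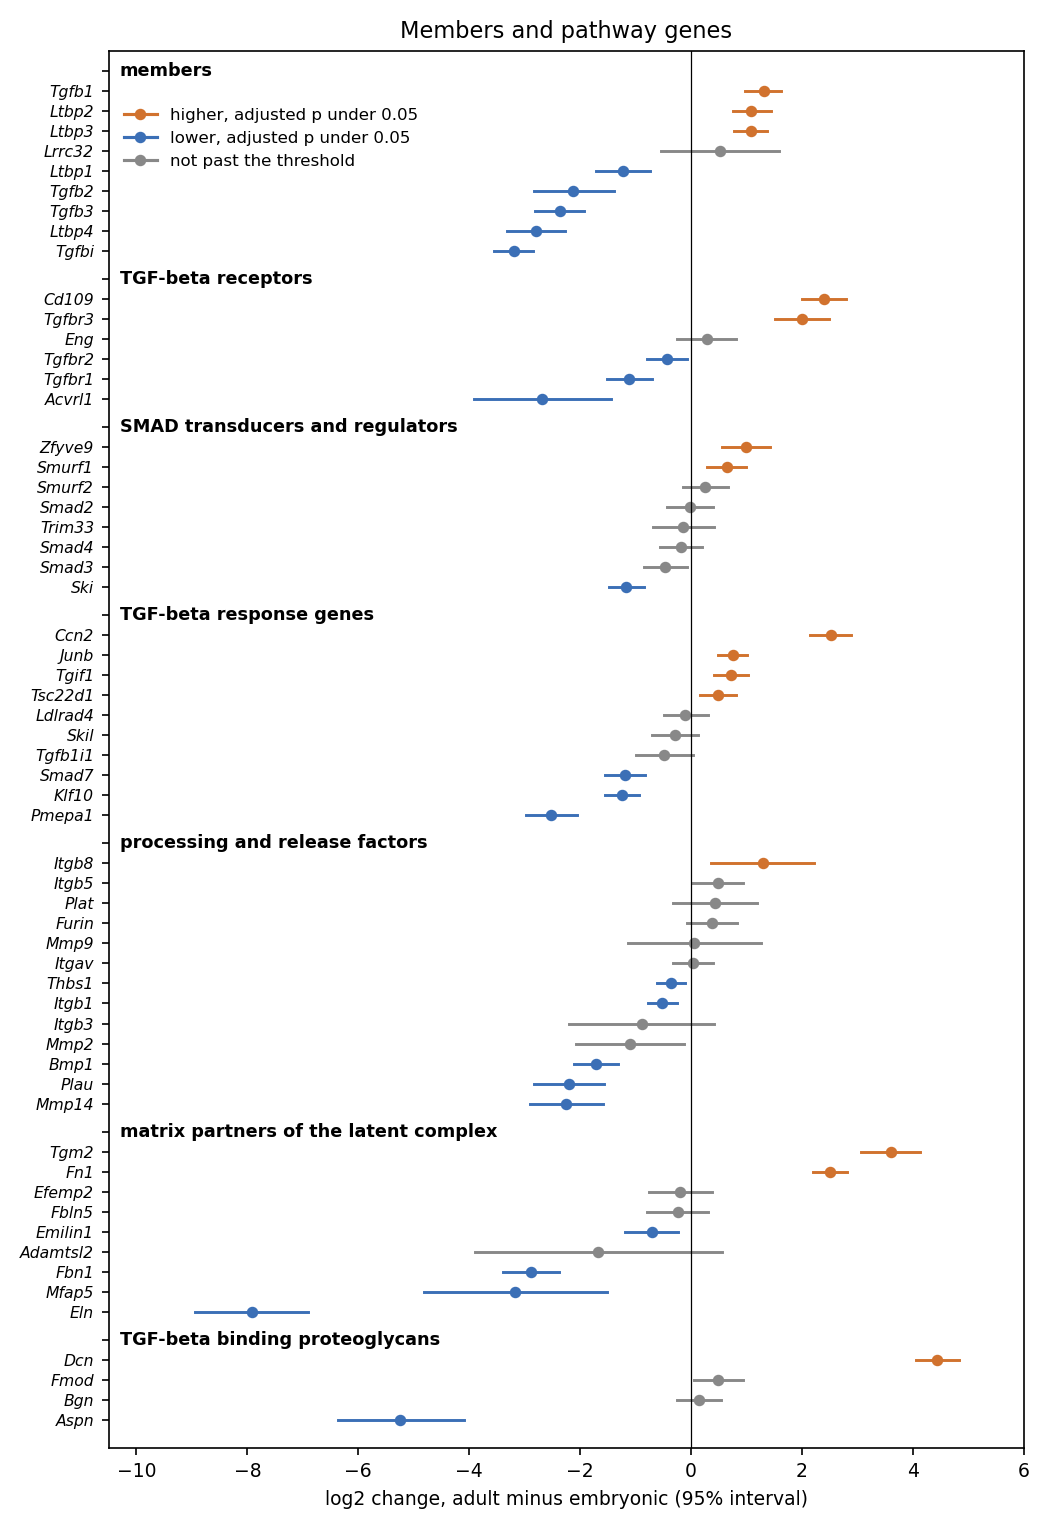
Log2 change (adult minus embryonic, n = 3 each) with its 95% interval for the members and the pathway genes by list, leaving out genes listed at 0 in most samples of a stage. Intervals left of 0 are lower in the adult, such as *Eln* at -7.92 and *Aspn* at -5.24, and those right of 0 higher, such as *Dcn* at 4.44 and *Tgm2* at 3.60.

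Other genes moved with these differences. All 8 chondrocyte markers reached at least 1 TPM in every sample, summing to between 19102 and 20426 TPM in the embryo and between 8529 and 11624 TPM in the adult, and most of that difference was *Col2a1* at 14689 ± 549 and 4706 ± 2090 TPM (SD, n = 3 each). *Col2a1*, *Matn3*, *Col9a1* and *Hapln1* passed as lower in the adult. *Matn3* fell to 1.11 to 3.65 TPM in the adult from 181 to 234 TPM in the embryo. *Col9a1* fell from 1931 ± 16.5 to 44.8 ± 18.6 TPM (limma adjusted p = 1.56e-06) and *Hapln1* from 575 ± 31.6 to 349 ± 5.3 TPM (adjusted p = 0.000882). By contrast *Comp* rose from 574 ± 28.2 to 2164 ± 456 TPM (limma adjusted p = 3.78e-05). The chondrocyte regulator *Sox9* rose from 436 ± 39.1 to 715 ± 164 TPM (adjusted p = 0.01). *Acan* (limma adjusted p = 0.0717) and *Snorc* (0.324) overlapped and did not pass. The 5 tendon and fibroblast markers summed to between 548 and 766 TPM in the embryo and between 214 and 318 TPM in the adult, and the tendon gene *Tnmd* measured 262, 108 and 162 TPM in the embryo and 0, 2.11 and 0.70 TPM in the adult. *Scx*, *Tnmd* and *Cd34* passed as lower in the adult. *Pdgfra* (257 ± 40.4 and 208 ± 57.4 TPM, limma adjusted p = 0.243) and *Thy1* (adjusted p = 0.514) overlapped and did not pass. The 5 osteoblast markers summed to between 4908 and 5989 TPM in the embryo, mostly *Col1a1*, and between 514 and 1033 TPM in the adult. The other bone genes of the list differed in both directions. *Dmp1* fell from 10.6, 16.3 and 10.1 TPM to 0.06, 0.06 and 3.51 TPM (log2 change -2.92, limma adjusted p = 0.00495), and *Sp7* did not pass. *Ibsp* measured 0.15, 29.6 and 5.07 TPM in the embryo and 316, 235 and 308 TPM in the adult (log2 change 5.58, limma adjusted p = 0.00164), and *Bglap*, listed at 0 in the embryo, reached 15.8 to 83.9 TPM in the adult. Both sorts had excluded ALP+ cells, the gate that removes osteoblasts. The 5 muscle markers summed to between 47.1 and 64.2 TPM in the embryo and between 1.24 and 8.83 TPM in the adult, with *Des* at 48.6 ± 2.39 and 0.93 ± 0.187 TPM making up most of the embryonic sum, the 4 erythroid markers to at most 104 TPM and the 4 skin markers to at most 2.44 TPM in any sample. *Tgfb2*, *Tgfb3*, *Ltbp1*, *Ltbp4*, *Tgfbi*, *Fbn1* and *Eln* were higher in the same stage as the tendon and fibroblast sum, *Col1a1* and *Des*, though *Pdgfra* and *Thy1* did not differ past the threshold. The part of tendon or other connective tissue cells in their levels was not tested. TPM keeps no depth, so precision rests on the spread of 3 samples, whose Pearson's r across genes ran from 0.974 to 0.977 within the embryonic stage, from 0.955 to 0.968 within the adult stage and from 0.885 to 0.894 across stages.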

How the data were processed

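Transcript levels of 6 sorted chondrocyte samples were analysed. The authors mapped the reads to the mouse genome GRCm38 with RefSeq annotations, estimated levels with RSEM (version not given in the sources used here) and deposited log2(TPM + 1) values, TPM being transcript abundance corrected for length and scaled to the same total in every sample. The deposited matrix held 22032 genes with Ensembl identifiers, of which 21902 took a symbol from GENCODE M21. Back-transformed TPM summed to 1000000 in every sample, so sequencing depth is unknown, and depth sets no interval here. The methods describe cDNA amplified with random and poly(T) primers, while the labels name an mRNA library kit, and whether reads were counted by strand is not stated, so overlapping antisense genes cannot be told apart.

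Stages were compared with limma 3.58.1 in R 4.3.3 (linear model, empirical Bayes with an intensity trend, no term but stage) on log2(TPM + 1), keeping genes that averaged 1 TPM or more, with Benjamini-Hochberg adjustment over all 13125 genes and a threshold of 0.05. EBSeq, which the methods of the study name, needs counts and was not used. Changes on this scale understate those of low genes. Summaries used Python 3.11.15 with pandas 2.3.3, numpy 2.4.6 and scipy 1.17.1, and figures matplotlib 3.10.9. The fit was tested on simulated data of the same 13125 genes: of 98 genes changed by 1 on the log2 scale 32.7% were called, and of 102 changed by 2, 69.6%, none with the wrong sign, together with 7 unchanged genes. Only 200 genes were changed in the simulation, whereas 45.3% passed in the data. The adjustment is stricter where fewer genes change, so these shares do not give the power of the stage comparison.

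Named were all 10 members, every pathway gene past the threshold, the 2 genes of each list with the largest change, the 3 genes most like each ligand and *Tgfbi*, and marker genes beside a result. The members and lists were chosen with earlier results of these data known, and *Smad2*, *Smad3*, *Smad4*, *Furin*, *Itgb6*, *Plg* and the other pathway genes that did not pass were named after their values were seen. All genes of the lists were matched. Alternatives were other pseudocounts, filters, scalings, fits and thresholds, a replicate block, and leaving out each sample. Promoter windows came from a RefSeq table. Protein sequences were not analysed here, and some items are not reported here.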

Additional observations from a re-analysis of the deposited data

How the results depend on the processing

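All 10 members kept their direction and their side of the threshold under 16 alternatives (15 for *Nrros*, which a filter of at least 5 TPM removes). The count of all genes called fell from 5949 to 3718 at an adjusted p of 0.01. Of all genes, 3140 were higher and 2809 lower, against 2613 and 3238 after median-of-ratios scaling and 3498 and 2518 after rescaling without the 20 highest genes (which leaves no value for *Ccn2* and *Fn1*), and the median log2 change of all genes was 0.16, 0.03 and 0.25. It was 0.09 after quantile normalization. The log2 change of *Smad2*, -0.02, was 0.03 after quantile normalization, 0.07 without the 20 highest genes and -0.20 to 0.15 when a sample was left out. That of *Ldlrad4*, -0.10, ranged from -0.18 to 0.03 and that of *Efemp2*, -0.19, from -0.39 to 0.11 when a sample was left out, and that of *Bgn*, 0.15, was 0 after median-of-ratios scaling. The causes were not tested. The log2 change of *Lrrc32* ranged from 0.03 to 0.77 when a sample was left out. Deviations of embryonic and adult samples with the same number correlated at -0.009, -0.017 and -0.022, so the numbers do not pair the samples, and with a replicate block 5430 genes, all 9 members and 32 instead of 33 pathway genes were called. Groups of 3 samples and an unknown depth limit the precision of low genes such as *Nrros*, *Lrrc32* and *Itgb8*.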

Other observations

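Adult sample 3 was the highest of the adult samples for several genes of the complex, which belongs to no comparison of the stages. *Tgfb2* measured 71.6 TPM there beside 34.8 and 28.7 TPM, *Mfap5* 83.7 TPM beside 7.66 and 9.81 TPM, *Lrrc32* 17.7 TPM beside 5.85 and 5.70 TPM, the integrin chain *Itgb3* 19.6 TPM beside 4.26 and 2.96 TPM, the gelatinase *Mmp2* 297 TPM beside 69.9 and 186 TPM, and *Mmp14* 172 TPM beside 73.6 and 79.4 TPM. The bone gene *Bglap* measured 83.9 TPM there beside 26.8 and 15.8 TPM. These genes were named after their values were seen.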
